A study of Rattus norvegicus with 15 samples.

Results

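Cultured cells of rat dorsal root ganglia (DRG) exposed to dbcAMP for 12 h were compared with cells kept in medium alone, on 3 of the 15 arrays of a time course. The 3 arrays were chosen by their titles, and every probe on them is described against the control RNA on the same array. L4 and L5 ganglia of juvenile rats were dissociated, and the cells were grown in Sato medium on poly-L-lysine or myelin, without the substrate being given for each array. Treated cells received 1.5 mM dibutyryl cAMP (dbcAMP), a membrane-permeable analog of cAMP, and their RNA carried Cy5, while the RNA of untreated cells carried Cy3. The other 12 arrays held the same pair at 1, 3, 6 and 18 h, 3 arrays per time, the first of which is 1 h in the sample labels and 0 h in the treatment protocol. Treated RNA was in Cy5 on all 15 arrays, so the dye bias of a probe and the effect of treatment cannot be told apart in a ratio against control, while a constant bias cancels in a difference between times. The cultures hold neurons together with other cells of the ganglion, and in such a mixture fewer cells of a type and less RNA per cell cannot be told apart. The deposited values are ratios without levels, so the cell type could not be checked by the abundance of its markers.

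Cyclic AMP activates protein kinase A, which phosphorylates the transcription factor CREB. CREB binds the cAMP response element (CRE), a short palindrome in the promoters of many early response genes. In sensory neurons a rise in cAMP is known for letting axons grow over myelin, which otherwise inhibits them, and gene transcription is required for that effect.

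At 12 h, 191 probes gave a higher and 239 a lower signal from DRG cells with dbcAMP than from cells without it, among 5014 probes with enough values for a test (limma, Benjamini-Hochberg adjusted p under 0.05). That is 8.58% of the probes, 3.81% higher and 4.77% lower. Values below are log2 ratios of treated over untreated cells, in which 1 is a doubling, given with the SD over the arrays. A gene said to rise or fall is above or below control, which says nothing of a change since an earlier time. The mean ratio was beyond 1 in size for 45 of the higher probes and 74 of the lower probes. At 1 h 56 of the 191 higher and 116 of the 239 lower probes were already at 50% or more of their 12 h ratio. Some genes that are given below without a 1 h value are among them. By gene, 169 of 4117 genes had at least 1 higher probe (4.1%) and 193 had at least 1 lower probe (4.69%), while the median over all genes was -0.00. Counts within gene lists below are to be set beside these shares. Whether each array had a culture of its own is not given, and the p-values rest on differences among arrays that may be technical. The error in each test was pooled over all 15 arrays, so the SD over the arrays of 12 h is not the spread behind a p-value. Across probes the SD was 0.357 to 0.400 on the arrays of 1 and 3 h and 0.645 to 0.703 on those of 18 h. For a probe that varies most at 12 h the pooled error is too small and the adjusted p too low, and for others it can be too large. With the arrays of 12 h alone 5 probes were called, and with array weights 232.

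The 3 arrays of 12 h differed in spread. The SD of the log2 ratios was 0.627 on array 1, 0.660 on array 2 and 0.383 on array 3, and 9.20%, 9.73% and 2.50% of the ratios on these arrays lay beyond 1 in size. Across probes, which are not independent replicates, array 1 correlated with array 2 at r = 0.299 and with array 3 at r = 0.462, and array 2 with array 3 at r = 0.319. With arrays of other times, arrays 1, 2 and 3 correlated at up to 0.461, 0.293 and 0.498, so the arrays of 12 h were not clearly more alike. Of the 430 called probes, 424 had a ratio on all 3 arrays and 6 on 2 arrays. Among the 424 the median size of the ratio was 0.88 on array 1, 0.75 on array 2 and 0.55 on array 3. The sign was the same on all 3 arrays for 419 of them, and array 3 had the opposite sign for 4. Calls were made on the mean of the same arrays, so this agreement in sign is in part built in. Array 3 lay within 0.25 of 0 for 58 called probes, against 21 for array 2 and 5 for array 1. Leaving out array 1 left 142 calls, leaving out array 2 left 254 and leaving out array 3 gave 543. Of the 430 calls, 114 were made again whichever array was left out, 42 higher and 72 lower. Such a call is said below to have held without each array in turn, and for most of the others an adjusted p is given without 1 or more of the arrays whose omission ended the call. Of the 136 called probes named by rule, 58 held in this way, while 71 were lost without array 1, 56 without array 2 and 23 without array 3. A fit of the 3 arrays of 12 h alone called 5 probes, those of Barhl1, Il6, Map1b, Ccnd1 and C5.

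**Figure D1:**
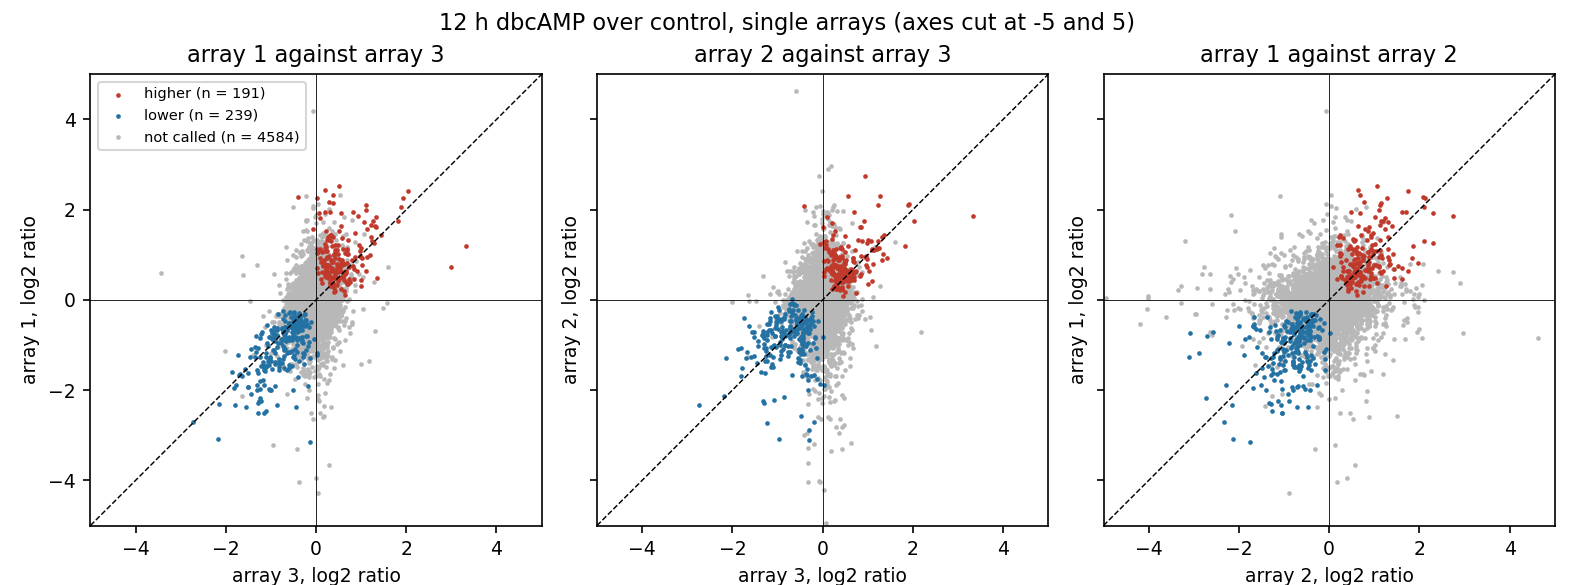
Log2 ratios of dbcAMP over control at 12 h for the probes tested, each panel setting 1 array against another, with the 191 higher probes in red, the 239 lower probes in blue and the others in grey. The axes are cut, so that probes with larger ratios, such as those of Barhl1 and Slc38a1, lie outside the panels. Arrays 1 and 2 spread more widely than array 3 (SD 0.627 and 0.660 against 0.383). The called probes, which were chosen by the mean of these arrays, lie mostly in the quadrants where all arrays have the same sign.

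The promoters of genes called at 12 h were read for the CRE, since this element links cAMP to transcription. The windows, from 250 bases before to 50 after the start site, come from RefSeq annotation of the rat assembly GRCr8. The full palindrome TGACGTCA was found in 6 of 139 promoters of higher genes (4.317%) and in 2 of 142 of lower genes (1.408%), against 71 of 3307 of all tested genes (2.147%) and 549 of 27457 in the whole table (1.999%). Its 5-base part TGACG, which lies in every full element and was searched on both strands, was in 30.94% of the promoters of higher genes, 26.06% of those of lower genes and 27.94% of those of all tested genes. The core of the antioxidant response element, TGACNNNGC on either strand, was in 15.83%, 15.49% and 15.24% of the same promoters. A match describes letters in a window and not binding, and the letters of a full CRE overlap those of the shorter part. The 3 higher genes below carry the full CRE and encode known products of the cAMP and cytokine response. Their 250 bases before the start site are shown 5′ to 3′ on the strand of the gene, with the CRE in capitals.
Il6: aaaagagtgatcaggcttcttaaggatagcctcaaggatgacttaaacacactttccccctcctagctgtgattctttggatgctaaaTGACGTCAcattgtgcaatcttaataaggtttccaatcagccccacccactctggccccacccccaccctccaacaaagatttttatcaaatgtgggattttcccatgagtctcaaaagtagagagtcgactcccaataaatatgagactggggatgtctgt
Dusp1: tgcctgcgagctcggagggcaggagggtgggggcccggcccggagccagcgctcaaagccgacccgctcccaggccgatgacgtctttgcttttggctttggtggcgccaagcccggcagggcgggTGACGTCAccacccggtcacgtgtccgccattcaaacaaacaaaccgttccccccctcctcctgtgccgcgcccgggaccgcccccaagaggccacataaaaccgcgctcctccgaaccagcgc
Vgf: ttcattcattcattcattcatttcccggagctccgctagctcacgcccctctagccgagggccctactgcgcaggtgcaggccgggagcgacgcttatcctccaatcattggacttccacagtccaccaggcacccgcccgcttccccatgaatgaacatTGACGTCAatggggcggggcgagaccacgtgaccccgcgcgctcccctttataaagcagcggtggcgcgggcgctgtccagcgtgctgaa

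These windows lie at chr4:5894576-5894825 for Il6, which encodes the cytokine interleukin-6, at chr10:17184603-17184852 for Dusp1, a phosphatase that switches off MAP kinases, and at chr12:25277021-25277270 for Vgf, a secreted neuropeptide precursor. The element begins 162 bases before the start site in Il6, 124 before it in Dusp1 and 90 before it in Vgf. The other 3 higher genes with the full element were Arnt, the partner of hypoxia-inducible factors, the synaptic vesicle protein Vamp1 and the peroxisomal oxidase Acox3, with mean log2 ratios of 0.88, 1.10 and 0.84. The 2 lower genes were Golph3, a Golgi protein at -0.99, and Ptpru, a receptor tyrosine phosphatase at -1.34. Short stretches around the element are shown for these 5 genes, so that its flanks can be compared between higher and lower genes.
Arnt: tgcacttcacTGACGTCAatttggttatg
Vamp1: cctggagatttTGACGTCAtccacgaggcg
Acox3: caagggagggaTGACGTCAcgttccgggat
Golph3: acatcctccggTGACGTCAacgcgcgccgc
Ptpru: acccgggggccTGACGTCAgcgccccgctc

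Il6 stood out among the gp130 cytokines and their receptors. The ratios of Il6 were 2.26, 2.13 and 1.93 on arrays 1, 2 and 3, a mean of 2.10 ± 0.17 (SD, n = 3, adjusted p = 0.0149). The 3 arrays were close to each other, and at 1 h Il6 had been at 0.15, at 3 h at 0.97 and at 6 h at 1.81. At 18 h the arrays were unequal, at -0.50, 3.25 and 2.83, so that their mean was 1.86 with array 1 and 3.04 without it. The adjusted p of Il6 at 12 h was 0.0930 without array 1 and 0.0683 without array 2. The error in these tests is pooled over all times and so takes in the unequal arrays of 18 h, with a standard error of 0.47 in the main fit. The 12 h mean of Il6 itself was 2.03, 2.09 and 2.19 without arrays 1, 2 and 3. Of the 8 genes of this list with a value, 2 rose, 1 fell and the median was 0.01. That is 37.5% of a short list, where 4.1% of all genes had a higher and 4.69% a lower probe. Il6st, which encodes the shared receptor subunit gp130, rose to 0.74 ± 0.51 (adjusted p = 0.0114), with 1.31, 0.56 and 0.34 on the arrays, and had an adjusted p of 0.106 without array 1. Cntfr, the receptor subunit for ciliary neurotrophic factor, fell to -1.11 ± 0.17 (adjusted p = 0.0340), a call that was lost with each of the arrays left out in turn (adjusted p of 0.147, 0.137 and 0.0567). The probe of Cntfr comes from plate 36, whose median was -0.34. The other members did not pass the test. They were Cntf at 0.38, the Lif probes at 0.04 and 0.05, Ctf1 at -0.15, Il6r at -0.02 and Lifr at -0.37, whose arrays ran from -1.66 to 0.77.

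Calls among the CREB target genes were all in 1 direction. Of 21 genes measured, 5 rose and 0 fell, 23.8% of the list where 4.1% of all genes had a higher probe, and the median of the list was 0.22. The list was chosen with earlier results of these data known, so the excess is a description and not a test. Called in either direction were 24.4% of the chemokine and interleukin list, 23.3% of the antioxidant list and 9 of 34 sodium, calcium and TRP channel genes. Over all genes 4.1% had a higher and 4.69% a lower probe. Ptgs2, the inducible cyclooxygenase, gave 1.73, 1.30 and 1.07 on the arrays with probe 16H10 (mean 1.37 ± 0.34, adjusted p = 0.00204), and all 3 arrays lay above 1. A further probe of Ptgs2, 52D03, gave -0.17 on array 1 and 1.48 on array 3, had no ratio on array 2 and did not pass the test (adjusted p = 0.249). The phosphodiesterases Pde4b and Pde4d, which break down cAMP, rose to 1.15 ± 0.70 (adjusted p = 0.0021) and 0.95 ± 0.60 (adjusted p = 0.00504). Both had 1 array far above the others, array 2 for Pde4b (0.81, 1.96 and 0.69) and array 1 for Pde4d (1.64, 0.65 and 0.56). Dusp1 rose to 0.79 ± 0.23 (adjusted p = 0.00145) and had been at 0.57 at 1 h. The calls of Ptgs2, Pde4b, Pde4d and Dusp1 held without each array in turn. For Vgf, probe 1D09 was called at 0.53 ± 0.31 (adjusted p = 0.0314, and 0.240 and 0.0615 without arrays 1 and 2) while probe 52D09 was at -0.08, so the probes of this gene disagree.

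Enzymes and anchors of cAMP signalling were called in both directions, with 4 of 37 genes higher and 2 lower around a median of -0.05. Of this list 16.2% was called, where 4.1% of all genes had a higher and 4.69% a lower probe. Besides Pde4b and Pde4d, the adenylate cyclase Adcy6 rose to 0.51 ± 0.25 (0.52, 0.75 and 0.25 on the arrays) and the catalytic kinase subunit Prkaca to 0.44 ± 0.29. A further catalytic subunit, Prkacb, fell to -0.69 ± 0.24, and Akap1, which anchors protein kinase A to mitochondria, fell to -0.72 ± 0.23. At 1 h Prkacb had been at -0.39 and Akap1 at -0.66. The calls of Pde4b, Pde4d and Akap1 held without each array in turn. Without array 1 the adjusted p was 0.113 for Adcy6, 0.0519 for Prkaca and 0.192 for Prkacb, and without array 2 it was 0.161, 0.272 and 0.0664. The probe of Prkacb lies on plate 36, and after each probe plate of an array was centred on its median Prkacb was at -0.35 (adjusted p = 0.310). Among the MAP kinase phosphatases and other feedback regulators, 3 of 16 genes rose and 1 fell (25% called), with a median of -0.07. Dusp6, a phosphatase of ERK, rose to 0.60 ± 0.36, with array 3 at 1.01 and the others at 0.44 and 0.34 (adjusted p = 0.159 without array 3). The regulators of G-protein signalling parted, with Rgs2 at 0.40 ± 0.11 and Rgs5 at -0.54 ± 0.26, and without array 1 their adjusted p was 0.139 and 0.149.

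**Figure D2:**
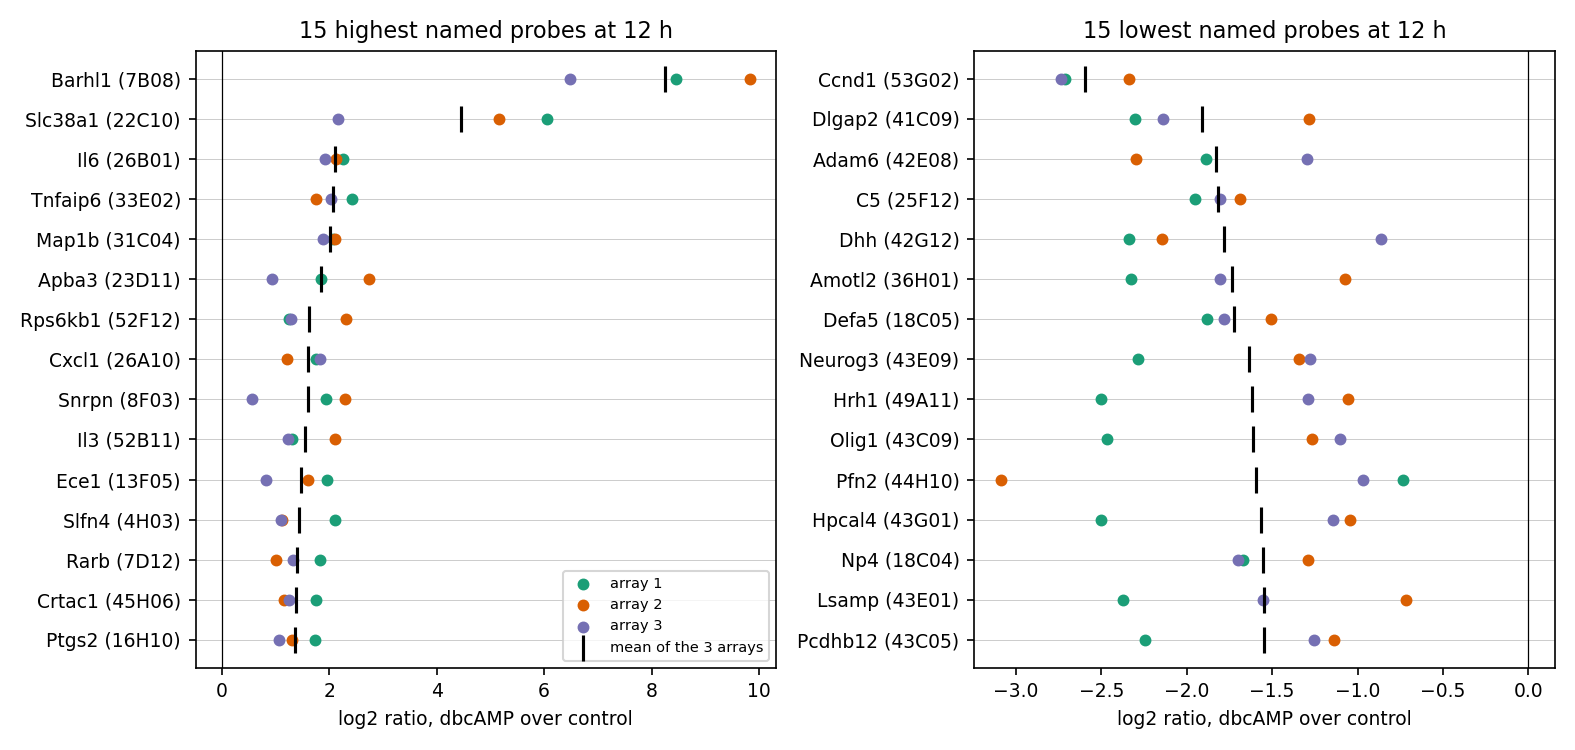
Log2 ratios of dbcAMP over control on each of the 3 arrays of 12 h for the 15 highest and the 15 lowest named probes that were called with 1 sign on all arrays, where points are arrays and the black bar is their mean. The arrays of Il6, Map1b, Ccnd1 and C5 lie close together, whereas those of Slc38a1, Snrpn, Dhh and Pfn2 spread by more than 1.

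Of the 15 highest named probes, 8 were already at 50% or more of their 12 h ratio at 1 h. Barhl1, a homeobox transcription factor, gave 8.45, 9.83 and 6.49 on the arrays (mean 8.26 ± 1.68, adjusted p = 2.93e-05) and had been at 4.86 at 1 h. Slc38a1, a glutamine transporter, gave 6.05, 5.15 and 2.16 (mean 4.45 ± 2.04) and had been at 2.69 at 1 h, so array 3 was the lowest of the arrays for both probes. Map1b, a microtubule-associated protein of growing axons, gave 2.06, 2.11 and 1.89 with probe 31C04 (mean 2.02 ± 0.12, adjusted p = 7.35e-06), after 1.13 at 1 h. A further Map1b probe, 31C10, was at -0.43 and did not pass the test, with -0.23, -1.05 and -0.02 on the arrays. Apba3, an adaptor that binds the amyloid precursor protein, was at 1.84 ± 0.90 after 1.09 at 1 h. Rps6kb1, the p70 S6 kinase, was at 1.61 ± 0.60 with probe 52F12 after 1.17 at 1 h, whereas its probe 34G05 was at 0.40 and did not pass the test. Crtac1, an extracellular matrix protein, was at 1.39 ± 0.32 and Rarb, a retinoic acid receptor, at 1.39 ± 0.41, after 1.05 and 0.70 at 1 h. Snrpn, a spliceosome protein, was at 1.59 ± 0.92, with 0.55 on array 3 against 1.93 and 2.30 on the others (adjusted p of 0.0572 and 0.0520 without arrays 1 and 2). Of the 15 calls 11 held without each array in turn, and those of Il6, Snrpn, Il3 and Slfn4 did not.

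Chemokines, interleukins and members of the TNF family rose in 9 of 41 genes and fell in 1, with a median of 0.04. That is 24.4% of the list, where 4.1% of all genes had a higher and 4.69% a lower probe. Tnfaip6, which binds hyaluronan in inflamed tissue, gave 2.42, 1.76 and 2.03 on the arrays (mean 2.07 ± 0.33, adjusted p = 4.52e-06) and had been at 0.56 at 1 h. Cxcl1 and Cxcl2, chemokines that attract neutrophils, rose to 1.60 ± 0.34 (adjusted p = 1.25e-05) and 1.01 ± 0.07 (adjusted p = 0.000109). For Cxcl2 the arrays were nearly equal, at 1.09, 0.97 and 0.97, and for Cxcl1 they were 1.76, 1.20 and 1.83. The calls of Tnfaip6, Cxcl1 and Cxcl2 held without each array in turn. Ccl20, which attracts lymphocytes and dendritic cells, rose to 0.67 ± 0.18, with an adjusted p of 0.0763 without array 1. Csf3, the granulocyte growth factor, rose to 0.47 ± 0.24 and the chemokine receptor Cxcr4 to 0.45, with adjusted p of 0.0551 and 0.251 without array 1, 0.196 and 0.0664 without array 2, and 0.158 and 0.0444 without array 3. Tnf was called at 0.78 on very unequal arrays, at 0.72, 1.61 and 0.02, and was at an adjusted p of 0.132 without array 1 and 0.283 without array 2. Il3, a growth factor of blood cells, was called with probe 52B11 at 1.54 ± 0.48 (0.0683 without array 2) and not with probe 26B07, at 0.51. Ccl2, which attracts monocytes, was the gene that fell, with both of its probes called at -0.48 and -0.35, adjusted p of 0.0983 and 0.238 without array 1 and 0.110 and 0.204 without array 2. After plate centring the second Ccl2 probe, 52C04, was at -0.18 (adjusted p = 0.281).

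Antioxidant enzymes and metallothioneins rose in 6 of 30 genes and fell in 1, with a median of 0.09. The share called was 23.3%, where 4.1% of all genes had a higher and 4.69% a lower probe. Sod3, the extracellular superoxide dismutase, gave 0.95, 1.10 and 1.14 on the arrays (mean 1.06 ± 0.10, adjusted p = 1.25e-05) and had been at 0.05 at 1 h. Hmox1, heme oxygenase, rose to 0.96 ± 0.21 (adjusted p = 0.000557), the iron-storage subunit Fth1 to 0.60 ± 0.18 (adjusted p = 0.0015) and the quinone reductase Nqo1 to 0.55 ± 0.18 (adjusted p = 0.00889). These 4 calls held without each array in turn, and all arrays of the 4 genes lay above 0. The mitochondrial superoxide dismutase Sod2 rose to 0.63 ± 0.06, with arrays at 0.56, 0.69 and 0.63 but an adjusted p of 0.0995, 0.112 and 0.0669 without arrays 1, 2 and 3. Mt1, a metal-binding protein, was called with probe 52F03 at 0.70 ± 0.14 (adjusted p = 0.0361) and not with probes 22G06 and 52G03, at 0.30 and 0.14, and without arrays 1, 2 and 3 the called probe had an adjusted p of 0.137, 0.0869 and 0.114. Gstp1, a glutathione transferase, was the member below control, at -1.30 ± 0.63 (adjusted p of 0.195 without array 1 and 0.118 without array 3). At 1 h it had been further below control, at -2.24. Outside the list, the carbonyl reductase Cbr1 rose to 1.30 ± 0.08 (adjusted p = 4.42e-05), with 1.39, 1.30 and 1.22 on the arrays and -0.10 at 1 h, and its call held without each array in turn.

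Extracellular proteases and their inhibitors rose in 4 of 33 genes and fell in 0, with a median of 0.15. The share called was 12.1%, where 4.1% of all genes had a higher and 4.69% a lower probe. Slpi, an inhibitor of leukocyte elastase, gave 1.57, 0.80 and 1.12 on the arrays (mean 1.16 ± 0.39, adjusted p = 0.00448, and 0.0573 without array 1). At 1 h it had been at -0.02 and at 6 h at 0.91, and at 18 h it was at 2.49. The lysosomal protease Ctsl rose to 0.86 ± 0.20 (adjusted p = 0.0016), the tissue plasminogen activator Plat to 0.68 ± 0.12 (adjusted p = 0.00133) and the metalloprotease inhibitor Timp1 to 0.64 ± 0.14 (adjusted p = 0.00158). The calls of Ctsl, Plat and Timp1 held without each array in turn. In the prostaglandin list, 2 of 20 genes rose and 1 fell (15% called), around a median of 0.01. Beside Ptgs2, the phospholipase Pla2g5 rose to 0.62 ± 0.50 on arrays at 0.62, 1.12 and 0.12. Ptges, which makes prostaglandin E from the product of cyclooxygenase, was below control at -0.76 ± 0.39. It had been further below control at 1 h, at -1.84. Without arrays 1 and 2 in turn the adjusted p was 0.140 and 0.263 for Pla2g5 and 0.142 and 0.267 for Ptges.

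**Figure D3:**
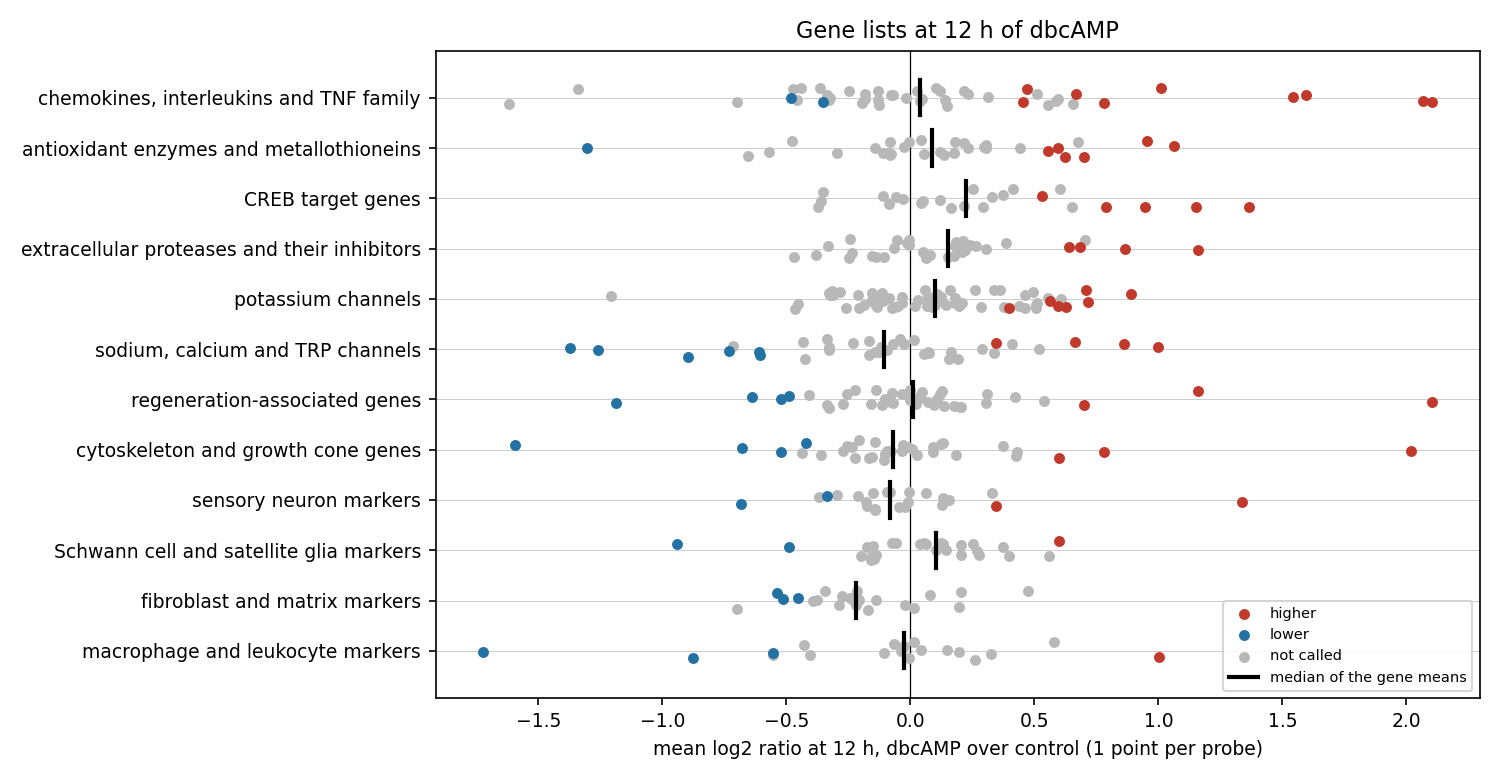
Mean log2 ratio at 12 h of dbcAMP over control for each probe of 12 gene lists, 1 point per probe, with higher probes in red, lower probes in blue, the others in grey and a black bar at the median of the gene means. The red points of chemokines and interleukins reach 2.10, all 5 called CREB targets lie right of 0, and the fibroblast markers have the lowest median, at -0.22.

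Genes associated with axon regeneration were called in both directions. Of 34 genes 3 rose, Il6, Slpi and Mt1, and 4 fell, with a median of 0.01. That is 20.6% of the list, where 4.1% of all genes had a higher and 4.69% a lower probe. Atf3, a transcription factor induced in injured neurons, fell to -1.19 ± 0.22 (adjusted p = 2.93e-05), with -1.09, -1.03 and -1.44 on the arrays and 0.14 at 1 h. Its call held without each array in turn. Gadd45a, a growth arrest gene, fell to -0.64 ± 0.17, the neurotrophin receptor Ngfr to -0.49 ± 0.20 with probe 31D04 and not with probe 50C10, at -0.16, and the growth cone protein Basp1 to -0.52 ± 0.21 with probe 52H06 and not with probe 28A06, at -0.22. Without array 2 the adjusted p was 0.123 for Gadd45a, 0.118 for Ngfr and 0.136 for Basp1, and without array 1 it was 0.113, 0.0364 and 0.0538. Gap43, a growth cone protein, had near-equal arrays at -0.25, -0.26 and -0.29 and did not pass the test (adjusted p = 0.0879). Arg1, arginase, was at 0.10 (adjusted p = 0.779) where its mean at 18 h was 1.12, and Sprr1a was at -0.41 with -1.06 on array 1 and 0.06 on array 3. The list of arginase, ornithine and polyamine enzymes had a median of 0.10 and held 1 call among 12 genes, that of the ornithine aminotransferase Oat at 0.45 ± 0.29 (adjusted p = 0.149 without array 1 and 0.194 without array 3). The share called, 8.33%, was near the shares over all genes.

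Cytoskeleton and growth cone genes rose in 3 of 30 genes and fell in 4, with a median of -0.07. The share called was 23.3%, where 4.1% of all genes had a higher and 4.69% a lower probe. With Map1b rose Map1a, a related microtubule-associated protein, at 0.78 ± 0.20 (0.0892 without array 1), and the adhesion molecule Ncam1 at 0.60 ± 0.50 with probe 32H02 (0.343 without array 1), beside 0.37 for its probe 52C11, which did not pass the test. At 1 h Map1a had been at 0.90. Pfn2, which binds actin monomers, fell to -1.60 ± 1.30 on arrays at -0.73, -3.09 and -0.97, so that array 2 set the size of this mean. The standard error of Pfn2 in the fit was 0.327, from an error pooled over all times. Tmsb10, a thymosin that sequesters actin, fell to -0.68 ± 0.04 (adjusted p = 0.00164) on nearly equal arrays at -0.71, -0.63 and -0.69. The calls of Map1b, Pfn2 and Tmsb10 held without each array in turn. Stmn4, a tubulin-binding stathmin, was called at -0.42 ± 0.04 (0.122 without array 1), but its plate, 43, had a median of -0.33, and after centring on plate medians its mean was -0.05 (adjusted p = 0.828).

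Of the markers of sensory neurons 2 of 20 rose and 2 fell, with a median of -0.08. The neurofilament Nefl was at 1.34 ± 0.29 with probe 27F06 and at -0.05 with probe 52A12, and the sodium channel Scn11a of nociceptors was at 0.35 ± 0.15. Uchl1, an abundant neuronal hydrolase, fell to -0.68 ± 0.27 and the synuclein Sncg to -0.34 ± 0.07. None of these 4 calls held without each array in turn, with adjusted p without array 1 of 0.122 for Nefl, 0.247 for Scn11a, 0.0539 for Uchl1 and 0.101 for Sncg. Without array 2 the same genes had 0.0514, 0.0841, 0.0937 and 0.102. Schwann cell and satellite glia markers had 1 gene higher, Ncam1, and 2 lower, Ngfr and the chaperone Cryab at -0.94 ± 0.18, of 23 genes, with a median of 0.10. After plate centring Cryab was at -0.57 (adjusted p = 0.0606). Fibroblast and matrix markers had 0 genes higher and 2 lower of 21, S100a4 at -0.54 and -0.52 with its 2 probes and the filament protein Vim at -0.45 ± 0.17, and their median of -0.22 was the lowest among the 34 lists. Without array 1 the adjusted p was 0.176 and 0.0519 for the S100a4 probes and 0.0536 for Vim, which had 0.122 without array 2. By array the fibroblast median was -0.19, -0.27 and -0.08. Endothelial markers had 2 of 12 genes higher and 0 lower, the adhesion molecule Sele at 0.78 ± 0.50 and the receptor Tek at 0.47 ± 0.24 (0.0891 and 0.224 without array 1), with a median of 0.08. The shares called were 20%, 13.0%, 9.52% and 16.7% for neuron, glia, fibroblast and endothelial markers. Over all genes 4.1% had a higher and 4.69% a lower probe, so the fibroblast share was near those over all genes. What part the mixture of cells has in the marker values was not tested.

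Macrophage and leukocyte markers had 1 gene higher and 3 lower of 17, with a median of -0.02. The share called was 23.5%, where 4.1% of all genes had a higher and 4.69% a lower probe. Defa5, an antimicrobial defensin, gave -1.88, -1.50 and -1.78 (mean -1.72 ± 0.20, adjusted p = 0.00116) after 0.17 at 1 h. The calcium-binding proteins S100a8 and S100a9, which neutrophils and monocytes hold in large amounts, fell to -0.87 ± 0.20 (adjusted p = 0.00162) and -0.55 ± 0.04 (adjusted p = 0.00238). Np4, a further neutrophil defensin outside the list, gave -1.67, -1.29 and -1.70 (mean -1.56 ± 0.23, adjusted p = 3.05e-05). The calls of Defa5, S100a8, S100a9 and Np4 held without each array in turn. Cd8a, a marker of cytotoxic T cells, was called at 1.00 on the 2 arrays with a ratio, 1.03 and 0.98 on arrays 1 and 2, and had none on array 3.

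Of the 15 lowest named probes, 14 calls held without each array in turn, and 10 were at 50% or more of their 12 h ratio at 1 h. Ccnd1, cyclin D1 of the G1 phase, gave -2.72, -2.34 and -2.73 with probe 53G02 (mean -2.60 ± 0.22, adjusted p = 1.73e-05), after -2.44 at 1 h. A further Ccnd1 probe, 30F03, gave 0.66, -0.59 and -0.03 and did not pass the test, so the probes of Ccnd1 disagree. C5, a complement component, gave -1.95, -1.69 and -1.81 (mean -1.82 ± 0.13) after -1.20 at 1 h. Dhh, the hedgehog protein that Schwann cells release, was at -1.78 ± 0.80, with -0.86 on array 3 against -2.34 and -2.14 on the others. Hrh1, the histamine H1 receptor, was at -1.62 ± 0.78, and the arrays were -2.50, -1.05 and -1.29. The transcription factors Neurog3 and Olig1, at -1.64 ± 0.57 and -1.61 ± 0.75, the calcium sensor Hpcal4 at -1.56 ± 0.81, the adhesion molecule Lsamp at -1.55 ± 0.83 and the protocadherin Pcdhb12 at -1.55 ± 0.61 all came from plate 43. The Pcdhb12 probe 43C05 lost its call without array 1 (0.181) and array 2 (0.0520), while its probe 43D07, at -1.49 ± 0.29, held. Dlgap2, a postsynaptic scaffold, was at -1.91 ± 0.55, Adam6 at -1.83 ± 0.50 and Amotl2, a protein of cell junctions, at -1.74 ± 0.63, after -2.70, -0.82 and -1.92 at 1 h.

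Calls were uneven over the 53 plates of 96 probes that the probe IDs name. Plates 1 to 35, with 3332 probes, held 159 higher and 63 lower probes, and plates 36 to 53, with 1682 probes, held 32 higher and 176 lower. The plate medians ran from -0.07 to 0.17 in the first set and from -0.34 to 0.01 in the second. Plate 36 had 24 lower probes and a median of -0.34, plate 41 had 18 and -0.24, and plate 43 had 32 and -0.33. Of the 15 lowest named probes 12 lay on plates 36 to 53, against 3 of the 15 highest. With plate medians subtracted from each array, 326 probes were called, 287 of them among the 430 and in the same direction. Of the 136 called probes named by rule, 38 were then no longer called, 20 higher and 18 lower ones. The higher ones were those of Adcy6, Csf3, Cyp51, Dusp6, Kcnc1, Kcne1, Kcnk10, Kcnn1, Ncam1, Oat, P2rx5, Pla2g5, Prkaca, Psma5, Rpl22, Scn11a, Slc35e4, Slc5a7, Sort1 and Tap2. The lower ones were Bad, Basp1, Ccl2, Cntfr, Cryab, Gabrq, Grik1, Grin3a, Gstp1, Igfbp6, Insig1, Ntf3, Prkacb, Rgs5, S100a4, Stmn4, Tgfb2 and Tgfb3, where for Ccl2, Ntf3 and S100a4 1 of the 2 called probes is meant. The mean of Kcnn1 was 0.25 after centring, that of S100a4 probe 52B03 was -0.34 and that of Tgfb2 was -0.24 (adjusted p of 0.181, 0.0935 and 0.282). What part the plates have in the lower calls was not tested.

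**Figure D4:**
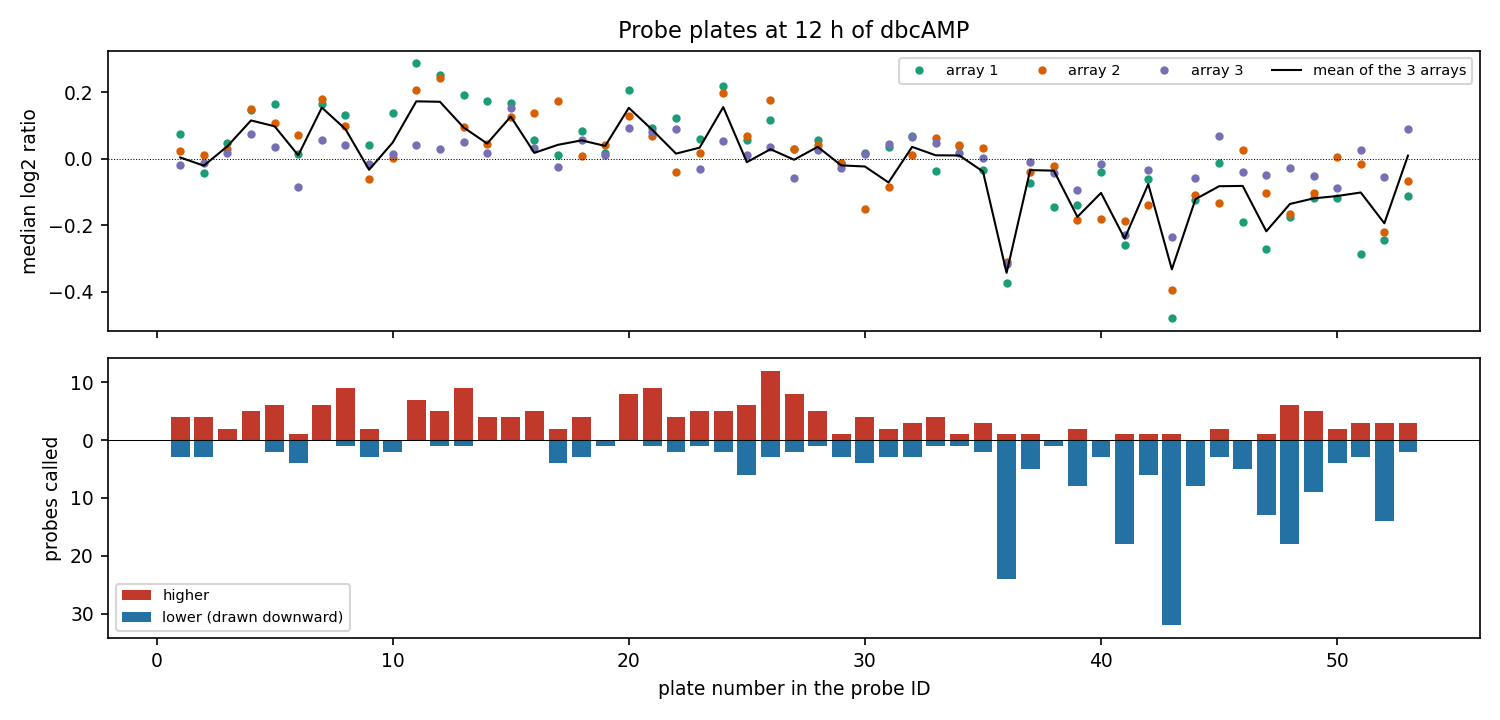
Above, the median log2 ratio of each probe plate at 12 h on arrays 1, 2 and 3 (points) and for the mean of the arrays (line), and below, the number of probes called higher (upward, red) and lower (downward, blue) on each plate. Plates 36 and 43 have the lowest medians, -0.34 and -0.33, and 24 and 32 lower calls.

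Of 64 potassium channel genes 7 rose and 0 fell, with a median of 0.10. That is 10.9% of the list, where 4.1% of all genes had a higher probe. Kcnj1, an inward rectifier, gave 0.78, 0.86 and 0.49 (mean 0.71 ± 0.20, adjusted p = 0.00433), and among the 7 genes its call alone held without each array in turn. The others were Kcne1 at 0.89 ± 0.95, Kcna2 at 0.72, Kcnab1 at 0.63 ± 0.24, Kcnc1 at 0.60 ± 0.09, Kcnk10 at 0.56 ± 0.51 and Kcnn1 at 0.40 ± 0.16. Without array 1 these 6 had adjusted p of 0.290, 0.139, 0.111, 0.148, 0.294 and 0.0573, and on array 3 Kcne1 was at 0.07 and Kcnk10 at 0.02. The probes of Kcnj1, Kcnab1, Kcne1 and Kcnn1 come from plate 20, whose median was 0.15. Those of Kcnc1 and Kcnk10 come from plate 21, whose median was 0.09. After plate centring the calls of Kcnc1, Kcne1, Kcnk10 and Kcnn1 were lost. Of 34 sodium, calcium and TRP channel genes 4 had a higher probe and 6 a lower probe, with a median of -0.11. The calcium channel subunits Cacna1a, Cacnb2 and Cacnb4 fell to -1.26 ± 0.20 (adjusted p = 4.42e-05), -1.37 ± 0.38 and -0.73 ± 0.13, and the sodium channel Scn8a to -0.61 ± 0.26 with probe 46G04, beside 0.02 for its probe 21D05. These 4 calls held without each array in turn. At 1 h Cacna1a had been at -1.02, Cacnb2 at -1.06, Cacnb4 at -0.26 and Scn8a probe 46G04 at -0.03. The 3 calcium channel probes lie on plates 41, 47 and 48, with medians of -0.24, -0.22 and -0.14, and stayed called after plate centring. Cacna1e, a further calcium channel, had probe 21F09 higher at 1.00 ± 0.29, probe 41D01 lower at -0.90 ± 0.38 and probe 21H01 at 0.34, and both opposite calls held without each array in turn. The higher probe lies on plate 21 and the lower on plate 41, and after plate centring they were at 0.92 and -0.67. Cacna1e was 1 of 2 genes called in both directions, the other being Gad1, which makes GABA, with probe 14E09 at 0.95 on arrays at 0.92, 1.83 and 0.10 and probe 52D04 at -0.64. The cation channels Trpc6 and Trpc2 rose to 0.86 and 0.67 (0.158 and 0.0823 without array 1), and the sodium channel Scn7a fell to -0.61 (0.141 without array 2).

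Among 56 ligand-gated ion channel receptors 1 rose, the ATP receptor P2rx5 at 0.63 ± 0.30, and 3 fell, with a median of -0.00. In all, 7.14% of this list was called, near the shares over all genes. The kainate receptor Grik1 fell to -1.03 ± 0.39, a call that held without each array in turn but not after plate centring (mean -0.66, adjusted p = 0.0732). The NMDA receptor subunit Grin3a was at -0.95 ± 0.44 and the GABA receptor subunit Gabrq at -0.90 ± 0.67, with -0.12 on array 3, and without array 1 the adjusted p was 0.113 for Grin3a, 0.192 for Gabrq and 0.0769 for P2rx5. At 1 h Grin3a had been at -0.92. Of 126 solute carriers 7 rose and 1 fell, with a median of 0.07. That is 6.35% of the list, where 4.1% of all genes had a higher and 4.69% a lower probe. The calls of Slc38a1 and of the proline transporter Slc6a7, at -0.63 ± 0.09, held without each array in turn. The glutamate transporter Slc1a2 was at 0.53 ± 0.10, the glucose transporter Slc2a1 at 0.53 ± 0.21 and the choline transporter Slc5a7 at 0.66 ± 0.64, with adjusted p without array 1 of 0.0638, 0.0523 and 0.330. Slc35e4, at 0.56, and the sodium-proton exchangers Slc9a5 and Slc9a2, at 0.55 and 0.47, had 0.326, 0.168 and 0.237. In the list of glycolysis with glucose and lactate transport Slc2a1 was the 1 gene of 24 called, and the median was 0.08. The 53 probes of the glycolytic enzyme Gapdh lay between -0.19 and 0.27 with a median of 0.09, and limma called 0 of them, with 5 at an unadjusted p under 0.05.

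In TGF-beta, activin and BMP signalling 1 of 36 genes rose and 3 fell, with a median of -0.13. Inhba, the activin subunit, gave 1.62, 0.88 and 1.32 (mean 1.27 ± 0.37, adjusted p = 0.00133), a call that held without each array in turn, after -0.13 at 1 h and 2.20 at 6 h. Bmp7 was at -0.50 ± 0.18, Tgfb3 at -0.63 ± 0.52 and Tgfb2 at -0.41 ± 0.18 with probe 52D10, and without array 1 they had an adjusted p of 0.0671, 0.293 and 0.245. Among neurotrophins, the GDNF family and their receptors 1 of 15 rose and 2 fell, with a median of -0.19. Both probes of the neurotrophin Ntf3 fell, to -1.25 ± 0.71 and -1.18 ± 0.69 (0.0812 and 0.0753 without array 1), and the sorting receptor Sort1 rose to 0.79 ± 0.61 (0.0910 without array 1 and 0.196 without array 2). At 1 h the Ntf3 probes had been at -1.24 and -0.58. In the insulin-like growth factor system 0 of 13 rose and 2 fell, with a median of 0.01, the adaptor Irs1 at -0.96 ± 0.39 and the binding protein Igfbp6 at -0.65 ± 0.05 (0.0734 and 0.0938 without array 1). Both probes came from plate 36, and after plate centring Igfbp6 was at -0.32 (adjusted p = 0.163). At 1 h Irs1 had been at -0.92 and Igfbp6 at -0.03. Of 22 genes of VEGF, endothelin and hypoxia 3 rose and 2 fell, with a median of 0.02. The endothelin-converting enzyme Ece1 rose to 1.46 ± 0.58, a call that held without each array in turn, and the hypoxia-inducible factor Hif1a and its partner Arnt rose to 0.72 ± 0.55 and 0.88 ± 0.40 (0.180 and 0.0981 without array 1). Vegfa fell to -1.07 ± 0.27 with probe 52C12 (0.0669 without array 1), beside 0.20 for its probe 25C10, and endothelin 3, Edn3, fell to -0.54 ± 0.22 (0.0608 without array 2). Vegfa probe 52C12 had been at -0.95, -1.36 and -1.42 on the arrays of 1 h and at -2.50, -3.52 and -2.66 on those of 3 h. The shares called in the TGF-beta, neurotrophin, insulin-like growth factor and VEGF lists were 11.1%, 20%, 15.4% and 22.7%. Over all genes 4.1% had a higher and 4.69% a lower probe.

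Of 68 cytosolic ribosomal protein genes 1 rose and 2 fell around a median of -0.03, of 30 respiratory chain genes 0 rose and 1 fell around -0.05, and of 31 proteasome and ubiquitin genes 1 rose and 0 fell around 0.05. The shares called were 4.41%, 3.33% and 3.23%, where 4.1% of all genes had a higher and 4.69% a lower probe. The members called were Rpl22 at 0.33, Rpl27 at -0.60, the pseudogene Rps4x-ps9 at -1.02 ± 0.08, the respiratory subunit Cox6c at -1.35 and -0.35 with 2 of its 3 probes, and the proteasome subunit Psma5 at 0.42. Pseudogene probes can share sequence with the parent gene, so Rps4x-ps9 is uncertain, though its call held without each array in turn. At 1 h Rps4x-ps9 had been at -1.28. The chaperones had 2 of 23 genes higher, the stress factor Ddit3 at 0.59 and Hsp90b1 of the endoplasmic reticulum at 0.38 with 1 of its 2 probes, and 1 lower, Cryab, with a median of 0.08. Of 13 genes of cholesterol synthesis and uptake, the demethylase Cyp51 rose to 0.57 on arrays at 1.04, 0.24 and 0.42, and Insig1, which restrains the pathway, fell to -1.52 on the 2 arrays with a ratio (0.0598 without array 2), around a median of 0.07. Among 25 cell cycle genes Ccnd1 and E2f1, a transcription factor of the S phase at -1.51 ± 0.20 (adjusted p = 0.000127), fell and 0 rose, with a median of 0.10. Of 27 apoptosis regulators Apaf1, which assembles the caspase-activating complex, fell to -1.46 ± 0.16 (adjusted p = 0.000543) and Bad, a death promoter, to -0.58 with 1 of its 2 probes, around a median of -0.04. The calls of Ccnd1, E2f1 and Apaf1 held without each array in turn. At 1 h E2f1 had been at -1.22 and Apaf1 at -1.06. Without array 1 the adjusted p was 0.262 for Rpl22, 0.169 for Rpl27, 0.285 for Psma5, 0.0600 for Ddit3, 0.135 for Hsp90b1, 0.238 for Cyp51 and 0.0892 and 0.182 for the called Cox6c probes. For Bad it was 0.0706 without array 2. Of 14 interferon-response genes Slfn4 rose to 1.44 ± 0.57 and the peptide transporter Tap2 to 0.54 ± 0.12 (0.127 and 0.106 without array 1), with a median of 0.05. Of 29 neuropeptides and granins Vgf was higher and Chgb lower, at -0.51 ± 0.29 (0.0808 without array 3), and the median was -0.13. In the cell cycle, apoptosis and neuropeptide lists 8%, 7.41% and 6.90% of the genes were called, near the shares over all genes. For the chaperone, cholesterol and interferon-response lists it was 13.0%, 15.4% and 14.3%.

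Few probes passed a test of the difference between 12 h and another time. Of the 191 higher probes 56 were at 50% or more of their 12 h ratio at 1 h, 88 at 6 h and 144 at 18 h, and of the 239 lower probes 116, 125 and 209. In the difference itself, 12 h minus 1 h, 15 of 5002 probes passed the test (0.3%), 7 higher and 8 lower at 12 h. Sod3 was at 1.06 at 12 h against 0.05 at 1 h (difference 1.01, adjusted p = 0.00265), Cbr1 at 1.30 against -0.10 (1.41, adjusted p = 0.00265), Tnfaip6 at 2.07 against 0.56 (1.50, adjusted p = 0.00265) and Inhba at 1.27 against -0.13 (1.41, adjusted p = 0.0498). Atf3 was at -1.19 at 12 h against 0.14 at 1 h (-1.32, adjusted p = 0.0023), Np4 at -1.56 against -0.11 (-1.45, adjusted p = 0.00639) and the progenitor filament Nes at -0.86 against 0.07 (-0.93, adjusted p = 0.0326). Leaving out array 1, 2 or 3 of both times left 5, 6 or 2 calls, and among the named probes Atf3 was called in 2 of these 3 fits, with an adjusted p of 0.0562 without array 3. Of the others, Sod3, Cbr1, Tnfaip6 and Np4 were called in 1 of the 3 and Inhba and Nes in 0, with adjusted p of 0.438 and 0.182 without array 1.

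Between 12 h and 6 h, 3 of 4998 probes differed (0.06%), and 2 of them have a gene symbol. Cxcl1 was at 1.60 at 12 h against 0.33 at 6 h and Kcnj1 at 0.71 against -0.52, with differences of 1.27 and 1.23 (adjusted p = 0.022 for both). Without array 1 of both times the adjusted p was 0.175 for Cxcl1 and 0.276 for Kcnj1, and for Cxcl1 it was 0.0917 without array 3. Between 12 h and 18 h, 31 of 4983 probes differed (0.622%), 21 higher and 10 lower at 12 h. Atf3 was at -1.19 at 12 h against -2.90 at 18 h (difference 1.71, adjusted p = 0.000163) and S100a9 at -0.55 against -1.95 (1.40, adjusted p = 0.000163), so both were further below control at the later time. Ankrd1, a target of the YAP coactivator, was at -0.52 at 12 h, which was not called against control (adjusted p = 0.0644), against -2.13 at 18 h (1.61, adjusted p = 0.00594), and Pla2g5 was at 0.62 against -1.34 (1.96, adjusted p = 0.00223). The differences of Atf3, S100a9, Ankrd1 and Pla2g5 were called whichever array was left out. Tnfaip6 was at 2.07 at 12 h against 3.14 at 18 h (-1.07, adjusted p = 0.0203, and 0.0882 without array 3) and Csf3 at 0.47 against 1.69 (-1.22, adjusted p = 0.0104, and 0.0517 without array 1). Kcnj8, an inward rectifier, was at -0.15 against 1.03 (-1.18, adjusted p = 0.0203, and 0.0642 without array 1). Arrays at 18 h were all wide, with SDs of 0.703, 0.666 and 0.645, and after scaling all arrays to 1 spread limma called 0 differences between 12 h and 18 h, with 345 probes at an unadjusted p under 0.05.

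**Figure D5:**
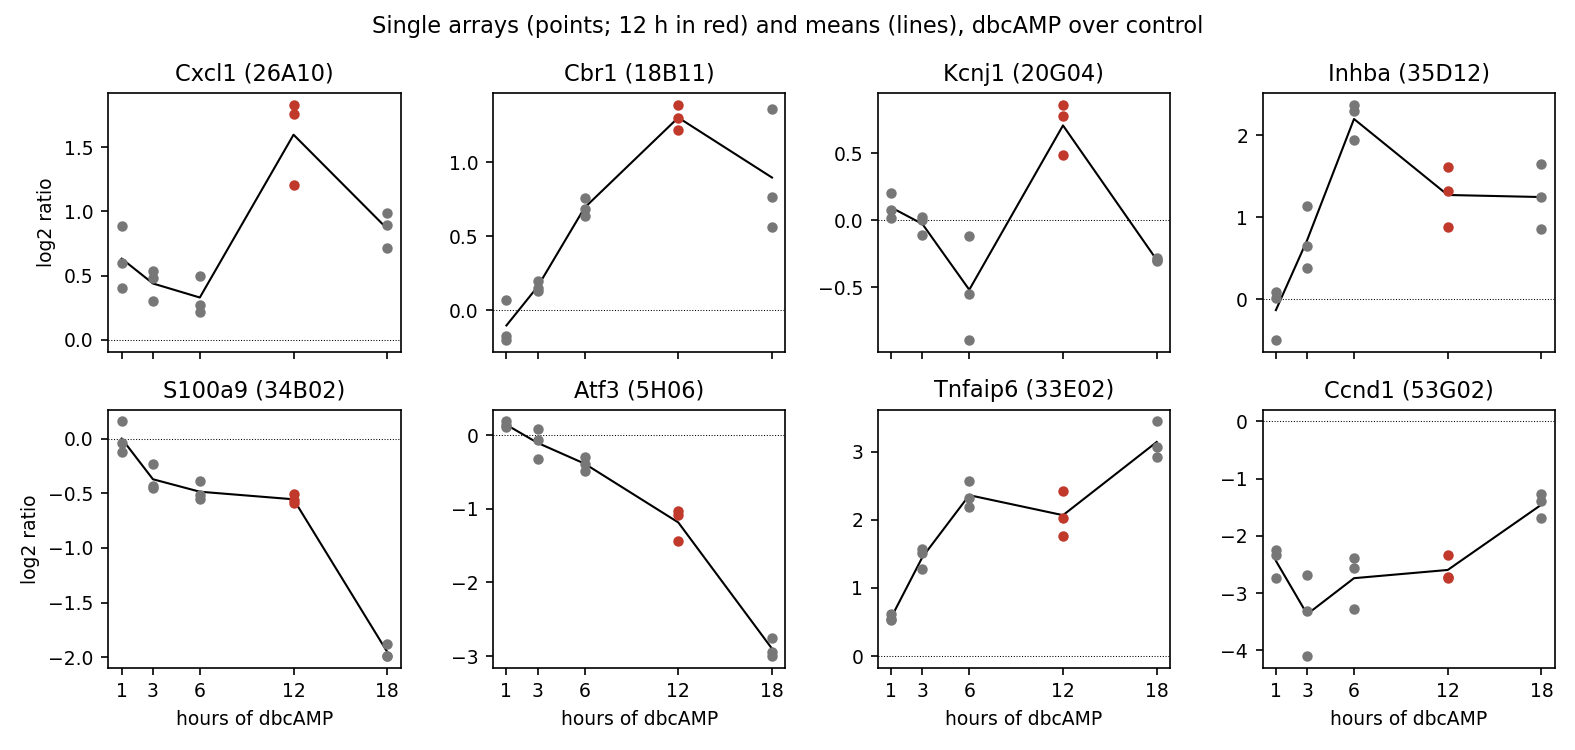
Log2 ratios of dbcAMP over control for 8 probes at 1, 3, 6, 12 and 18 h, where points are single arrays (12 h in red), lines join the means and each panel has its own vertical scale. Cxcl1 and Kcnj1 are highest at 12 h, Inhba at 6 h, S100a9 and Atf3 are lowest at 18 h, and Ccnd1 is below -2 from 1 to 12 h.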

How the data were processed

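Cultured rat DRG cells treated with dbcAMP for 12 h and untreated cells were compared on 3 arrays, within a fit of all 15 arrays. The authors deposited linear ratios, 1 per probe and array, of treated (Cy5) over control (Cy3) RNA, labelled with a dendrimer system and hybridized to spotted oligonucleotides. How background was corrected and ratios were normalized is not given in the sources used here, and scanner intensities were not used here. The number of arrays limits the precision. Array medians were close to 1, so log2 of the ratio was used without centring, on the 4999, 4983 and 5032 probes with a ratio on arrays 1, 2 and 3.

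Probes were tested against 0 with limma 3.58.1 in R 4.3.3 (lmFit and eBayes, 1 mean per time over 5 times, a ratio on at least 2 arrays, two-sided, Benjamini-Hochberg adjustment, threshold 0.05). Differences between times came from the same fit. The fit was tested on simulated data. Plots used matplotlib 3.10.9. Of 5088 probes, 4423 carried 1 gene symbol in the platform annotation (which can be old), 2 carried several and 663 carried none. The gene identifiers of 4375 probes matched the GRCr8 gene table with 0 changed symbols. Probes of a gene were tested apart and averaged for the medians of gene lists.

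The genes, lists and tests were chosen with earlier results of these data known. The 34 lists are described by counts and medians with no set test. Named genes were the 15 highest and 15 lowest named probes called with the same sign on all 3 arrays, genes the paper names with cAMP (Crem, Mt2A and Jun are not analysed here), the 6 called members of each list with the smallest p, and the 5 highest and 5 lowest for each difference. Nes, Gad1, Golph3, Ptpru, Vamp1, Acox3 and the further list members Cxcr4, Tnf, Kcna2, Scn7a, Trpc2, Trpc6, Slc9a2 and Slc9a5 were added after their values were seen, and the S6 kinases were then left out of the ribosomal list. Alternatives were centring on array or plate medians, scaling, the arrays compared alone, array weights, a replicate block, other filters, a robust prior (statmod 1.5.0), the methods' t-test, a threshold of 0.01 and leaving out each array. A fit without arrays 1 and 2 of 12 h was added after the data were seen.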

Additional observations from a re-analysis of the deposited data

Results flagged for a closer look

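The log2 ratio of the named probes below differed between 12 h and another time by limma's test of the difference itself, with an adjusted p under 0.05. For 12 h minus 1 h, the log2 ratio was higher at 12 h by 1.50 for Tnfaip6, 1.41 for Cbr1, 1.41 for Inhba, 1.01 for Sod3 and 0.74 for Timp1. The difference was -1.89 for Defa5, -1.45 for Np4, -1.44 for the serine protease Tmprss11d, -1.32 for Atf3 and -0.97 for Ccl2 probe 26C01, which were lower at 12 h. None of these 10 differences was called whichever array of both times was left out. Those of Defa5, Ccl2, Timp1 and Inhba were lost in all 3 such fits, with adjusted p without array 1 of 0.347, 0.286, 0.463 and 0.438. That of Tmprss11d was lost without arrays 1 and 3 (0.0700 and 0.187).

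For 12 h minus 6 h the differences were 1.27 for Cxcl1 and 1.23 for Kcnj1. For 12 h minus 18 h, the ratio was higher at 12 h by 1.96 for Pla2g5, 1.71 for Atf3, 1.61 for Ankrd1, 1.40 for S100a9 and 1.36 for the cathepsin Ctsq. It was lower at 12 h for Anxa3, an annexin, at -1.27, for Csf3 at -1.22, for Kcnj8 at -1.18, for the chemokine Cxcl6 at -1.12 and for Tnfaip6 at -1.07. The difference of Ctsq had an adjusted p of 0.0628 and 0.0971 without arrays 1 and 2, that of Anxa3 0.0665 and 0.0559 and that of Cxcl6 0.0854 and 0.123. Ankrd1, Ctsq, Cxcl6 and Kcnj8 were not called against control at 12 h. Groups of 3 arrays are too small for a search for single arrays that stand apart.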

How the results depend on the processing

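Of the 430 probes called at 12 h, 428 were called in the same direction after centring arrays on their medians (430 calls), 427 with a robust prior (427 calls) and 424 with a ratio required on all 3 arrays. Fewer were called after scaling the arrays to a common spread (256, of which 252 shared), with array weights (232, of which 218 shared, 77 higher and 155 lower), at an adjusted p under 0.01 (176), in the arrays of 12 h alone (5), by the methods' t-test after Benjamini-Hochberg adjustment (0, with 489 at an unadjusted p under 0.05, where limma had 1161) and without arrays 1 and 2 of 12 h (32, of which 26 shared, the lone array being assumed to vary like the others). Leaving out single arrays gave 142 to 543. Centring on plate medians gave 326 calls.

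For 12 h minus 1 h, the 15 calls became 2 after scaling, 2 in the compared arrays alone, 1 by the t-test, 6 at an adjusted p under 0.01, 4 without arrays 1 and 2 of 12 h and 2 to 6 without single arrays. For 12 h minus 6 h, the 3 calls became 1 after scaling, 0 in the compared arrays alone (262 at an unadjusted p under 0.05), 0 with array weights (355), 0 by the t-test (241), 0 at an adjusted p under 0.01, 5 with a ratio on at least 1 array and 0 to 4 without single arrays (530 probes had an unadjusted p under 0.05 by limma). For 12 h minus 18 h, the 31 calls became 0 after scaling (345 at an unadjusted p under 0.05), 0 in the compared arrays alone (368), 8 with array weights, 1 by the t-test, 9 at an adjusted p under 0.01, 4 without arrays 1 and 2 of 12 h and 37 to 75 without single arrays, where 720 had an unadjusted p under 0.05 by limma. The cause was not tested.

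The replicate numbers are not said to mark shared cultures, and arrays of the same number did not deviate together (r between -0.06 and 0.06 over 30 pairs). With the replicate number as a block, 394 probes were called at 12 h, 375 of them shared, and 9, 0 and 20 for the differences from 1, 6 and 18 h. Of 136 named called probes, 88 kept their call after scaling, 98 after plate centring, 86 with array weights, 121 with the block, and 63, 79 and 112 without arrays 1, 2 and 3. No mean of these 136 probes changed sign under an alternative that was run. Calls lost without array 3 were those of Bmp7, Chgb, Cntfr, Csf3, Ddit3, Dusp6, Gstp1, Hsp90b1, Igfbp6, Kcnc1, Kcnn1, Mt1, Ngfr, Oat, Prkaca, Prkacb, Psma5, Rgs2, Rgs5, Scn11a, Sod2, Tgfb2 and Tgfb3 (adjusted p 0.0528 to 0.194). Without array 2 they were those of Adcy6, Anxa3, Arnt, Bad, Basp1, Ccl2, Cntfr, Cox6c, Csf3, Ddit3, Edn3, Gabrq, Gadd45a, Grin3a, Hif1a, Hsp90b1, Igfbp6, Il3, Il6, Insig1, Kcnab1, Kcnc1, Kcne1, Kcnk10, Kcnn1, Mt1, Ncam1, Nefl, Ngfr, Ntf3, P2rx5, Pcdhb12, Pla2g5, Prkaca, Prkacb, Ptges, Rpl22, Rpl27, S100a4, Scn11a, Sele, Slc2a1, Slc35e4, Sncg, Snrpn, Sod2, Sort1, Stmn4, Tap2, Tek, Tgfb2, Uchl1, Vgf and Vim (0.0504 to 0.272), in some of these genes for 1 of several probes.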
